A study of Homo sapiens with 4 samples.

Results

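The miR-29 family was examined in cortical interneurons, the inhibitory nerve cells of the cortex, differentiated from human embryonic stem cells (hESCs). Its 7 mature miRNAs, hsa-miR-29a-3p, hsa-miR-29b-3p, hsa-miR-29c-3p, hsa-miR-29a-5p, hsa-miR-29b-1-5p, hsa-miR-29b-2-5p and hsa-miR-29c-5p, were looked up by name among the 2656 mature human miRNAs of the count table, and all 7 were found. Small RNA libraries had been prepared from 2 samples of cells kept for 7 days in maturation medium with around 50 to 100 mM ethanol (exposed), and from 2 samples kept for 7 days without it (unexposed). All 4 samples came from H1, an established hESC line, so the cells stand for 1 genetic background. After ethanol the cells had a further period of culture without it before collection. The treatment was run in duplicate, but no source used here says whether the replicates came from separate differentiations, so P-values measure only the spread between these samples.

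A miRNA precursor is a hairpin whose 5p and 3p arms can each yield a mature strand. The strand that is usually kept and guides silencing is called the guide, and the other the passenger. In the miR-29 family the 3p strands are the guides, and they recognize mRNAs chiefly by their seed, the bases at positions 2 to 8. These guides are known for repressing the DNA methyltransferases DNMT3A and DNMT3B, enzymes of active demethylation such as TET proteins, and collagens and other components of the extracellular matrix. In the rodent brain the family is known to rise as neurons mature, where it holds down pro-apoptotic BH3-only genes. miR-29b is also known for a terminal AGUGUU hexanucleotide that was linked to its import into the nucleus.

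The guide strands are shown because their shared seed, in capitals, defines the family, and their differences lie outside it. Mature sequences and hairpins were taken from RefSeq (GRCh38.p14), which matched all 7 members.
hsa-miR-29a-3p: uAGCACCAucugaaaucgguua
hsa-miR-29b-3p: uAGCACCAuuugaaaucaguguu
hsa-miR-29c-3p: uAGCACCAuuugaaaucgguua

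The guides of miR-29a and miR-29c were identical at 21 of 22 aligned bases and differed by C10U, counted from the 5′ end with the base of miR-29a first. Between miR-29a and miR-29b 18 of 22 aligned bases were identical, with the changes C10U, G18A, U21G and A22U. The seed AGCACCA was found in 3 of the 2367 listed miRNAs with a RefSeq sequence (0.127%), all of them the miR-29 guides. AGUGUU formed the last 6 bases of 2 of these miRNAs (0.084%), hsa-miR-29b-3p and hsa-miR-519e-3p.

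The passenger strands are shown because each can be traced to 1 locus, those of miR-29b included. Capitals again mark bases 2 to 8, which differed among all 4.
hsa-miR-29a-5p: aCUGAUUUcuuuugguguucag
hsa-miR-29b-1-5p: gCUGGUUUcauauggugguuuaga
hsa-miR-29b-2-5p: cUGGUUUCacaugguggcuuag
hsa-miR-29c-5p: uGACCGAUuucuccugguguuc

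The passengers of MIR29B1 and MIR29B2 matched at 20 of 22 aligned bases, with a start shifted by 1 base and the changes U11C and U19C, counted along hsa-miR-29b-1-5p. Those of MIR29A and MIR29C matched at 17 of 20 aligned bases. The hairpins are given because the arms of the same precursor are compared with each other, and capitals mark the mature arms, the 5p arm first.
MIR29A: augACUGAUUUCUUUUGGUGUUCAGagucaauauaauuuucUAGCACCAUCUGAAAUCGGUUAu
MIR29B1: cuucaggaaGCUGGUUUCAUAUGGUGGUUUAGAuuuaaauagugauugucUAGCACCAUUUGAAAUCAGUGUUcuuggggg
MIR29C: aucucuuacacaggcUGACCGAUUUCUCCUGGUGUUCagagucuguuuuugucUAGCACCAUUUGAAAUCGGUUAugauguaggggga
MIR29B2: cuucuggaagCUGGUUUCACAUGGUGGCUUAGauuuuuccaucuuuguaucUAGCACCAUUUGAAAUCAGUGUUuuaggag

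The 4 hairpins lie in a pair of clusters on the minus strand (GRCh38.p14). MIR29A (chr7:130876747-130876810) and MIR29B1 (chr7:130877459-130877539) are separated by 648 bases, and MIR29C (chr1:207801852-207801939) and MIR29B2 (chr1:207802443-207802523) by 503 bases. In GENCODE 29 both chromosome 1 hairpins lie in an exon of the long noncoding RNA gene MIR29B2CHG. On chromosome 7, both lie in introns of the long noncoding RNA gene AC016831.6, MIR29B1 also lies in an exon of LINC-PINT, and MIR29A lies partly in one. The mature hsa-miR-29b-3p is the same from both clusters, so its counts could not be divided between them. Reads that matched more than 1 miRNA may have been assigned in different ways, and how the authors treated them is not given in the sources used here. The levels of hsa-miR-29a-3p and hsa-miR-29c-3p, which differ by a single base, are therefore less certain than their counts alone imply.

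The counts summed to between 22223060 and 24858230 in the exposed libraries and between 12100425 and 13941795 in the unexposed libraries, so depth and exposure cannot be told apart. Levels are given as CPM (counts for each 1000000 counts of a library), scaled by TMM, edgeR's trimmed mean of M-values, and as all mature members are 22 to 24 bases long they were not divided by length. Summed markers of neurons, led by hsa-miR-9-5p at a mean of 191000 CPM, came to between 229000 and 260000 CPM in exposed and between 224000 and 301000 CPM in unexposed cells. Among marker lists of other cells, the highest members were hsa-miR-21-5p (astrocytes, 5910 CPM), hsa-miR-126-3p (endothelium, 905 CPM), hsa-miR-204-5p (choroid plexus and pigment epithelium, 896 CPM), hsa-miR-219a-2-3p (oligodendrocytes, 87.6 CPM), hsa-miR-143-3p (mesenchyme, 71.0 CPM), hsa-miR-155-5p (microglia and leukocytes, 6.02 CPM), hsa-miR-302b-3p (pluripotent cells, 1.58 CPM) and hsa-miR-451a (erythroid cells, 0.43 CPM). The markers hsa-miR-223-3p and hsa-miR-142-3p of microglia and leukocytes, and hsa-miR-367-3p, hsa-miR-371a-3p and hsa-miR-373-3p of pluripotent cells, had 0 counts in all 4 libraries. Other members of these lists were low but counted. Among pluripotent markers hsa-miR-372-3p had 21 and 24 counts in exposed and 14 and 8 in unexposed cells. There hsa-miR-302a-3p, hsa-miR-302c-3p and hsa-miR-302d-3p had 2 to 11 counts in a library. The leukocyte marker hsa-miR-142-5p had at most 1. Summed levels in exposed and unexposed cells did not overlap for 4 of the 9 lists, while single tested miRNAs did not overlap in 33.4% of cases, and 0 members of these 4 lists had a P under 0.05 in edgeR. The astrocyte list, which miRNAs do not define sharply and which was almost wholly hsa-miR-21-5p, stood at 4460 to 5570 CPM in exposed and 6590 to 7290 CPM in unexposed cells. The microglial list, almost wholly hsa-miR-155-5p, stood at 5.0 to 5.59 against 6.53 to 7.12 CPM. The pluripotent list stood at 2.42 to 2.92 against 3.48 to 3.89 CPM, and the endothelial list at 927 to 1020 against 807 to 894 CPM. The part of these markers in the miR-29 levels was not tested, and in bulk RNA fewer cells of a type and less of a miRNA per cell cannot be told apart.

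The miR-29 guides were present at moderate levels and were made up almost wholly of miR-29a, while most passenger strands came from the chromosome 1 cluster that encodes miR-29c and miR-29b-2. hsa-miR-29a-3p had a mean of 85.7 ± 9.52 CPM (SD, n = 4) and ranked 176th of the 2656 miRNAs by mean CPM. It was followed by hsa-miR-29b-3p at 6.53 ± 0.696 CPM (rank 431) and, below the passengers of miR-29b-2 and miR-29c, by hsa-miR-29c-3p at 1.48 ± 0.182 CPM (rank 638). In order of mean level the 7 members were hsa-miR-29a-3p, hsa-miR-29b-3p, hsa-miR-29b-2-5p, hsa-miR-29c-5p, hsa-miR-29c-3p, hsa-miR-29b-1-5p and hsa-miR-29a-5p. In this order only the neighbors hsa-miR-29b-2-5p (2.8 to 4.56 CPM) and hsa-miR-29c-5p (3.04 to 4.44 CPM) overlapped in range. All 7 members together held 7603 counts, 7007 of them from the guides and 596 from the passengers,, or from 0.00915% to 0.0128% of a library's counts.

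**Figure D1:**
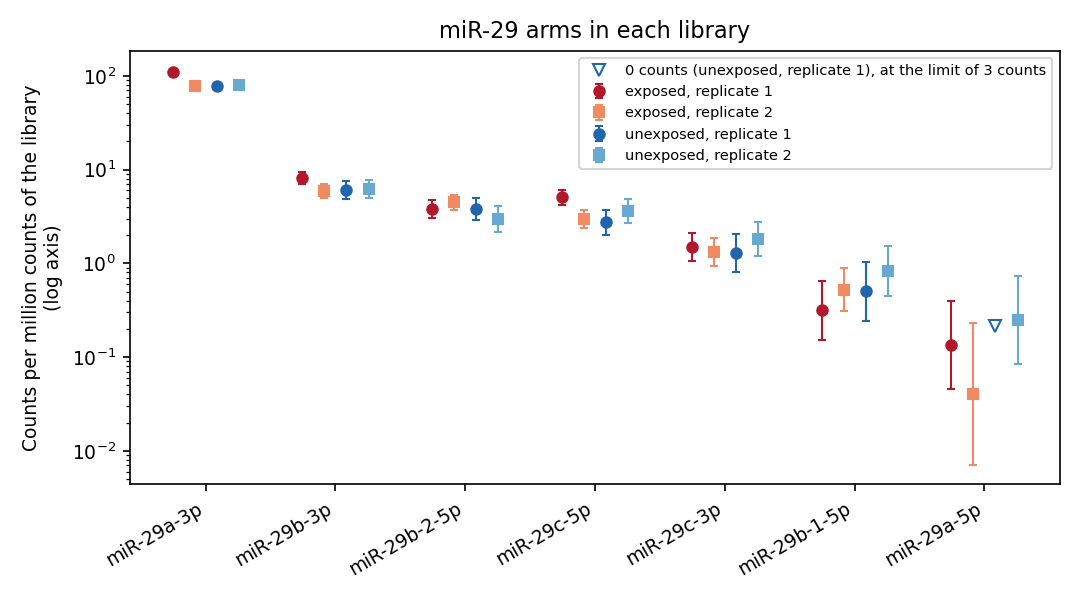
Level of each miR-29 member in each of the 4 libraries, as CPM on a log axis, taken from the library total without TMM scaling, with 95% Wilson intervals that cover counting error only. Points run from hsa-miR-29a-3p, between 77.2 and 109 in all 4 libraries, down to hsa-miR-29a-5p, whose open triangle marks 0 counts in unexposed replicate 1 at the limit of 3 counts.

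hsa-miR-29a-3p, the leading guide, had 2424 and 1938 counts in exposed replicates 1 and 2 and 1076 and 977 counts in unexposed replicates 1 and 2. Scaled by depth, these were 96.1 and 79.6 CPM in exposed cells and 91.2 and 75.9 CPM in unexposed cells. At this TMM scaling replicate 1 was the higher in each group and the groups overlapped. By library total without TMM, unexposed replicate 2 was the higher of its group, at 80.7 against 77.2 CPM. The means were 87.9 ± 11.7 CPM in exposed and 83.6 ± 10.8 CPM in unexposed cells (SD, n = 2 each). The log2 fold change, exposed over unexposed, was 0.072 (SE 0.24, 95% interval -0.49 to 0.63), with an adjusted P of 0.983 by edgeR's quasi-likelihood test with Benjamini-Hochberg adjustment over 863 miRNAs. The unadjusted P of this fit was 0.772, and an exact two-sided permutation test over libraries gave P = 0.667. The interval runs from a 0.714-fold to a 1.55-fold level in exposed cells.

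hsa-miR-29b-3p, the guide made by both clusters, had 180 and 147 counts in exposed cells and 84 and 75 counts in unexposed cells, that is 7.14 and 6.04 CPM against 7.12 and 5.83 CPM. The groups overlapped, and after TMM scaling replicate 1 again had the higher level in each. By library total without TMM, unexposed replicate 2 was the higher of its group, at 6.2 against 6.03 CPM. The log2 fold change was 0.026 (SE 0.30, 95% interval -0.66 to 0.71, or 0.632-fold to 1.64-fold), with an adjusted P of 0.988 by edgeR (unadjusted P = 0.932, exact permutation P = 1.0).

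hsa-miR-29c-3p, the guide that differs from miR-29a by a single base, had 33 and 33 counts in exposed cells and 18 and 22 counts in unexposed cells. These corresponded to 1.31 and 1.36 CPM in exposed cells and 1.53 and 1.71 CPM in unexposed cells. With TMM scaling, each exposed library lay below each unexposed library, which held for 1 of the 5 tested members. At this scaling groups did not overlap for 33.4% of all 863 tested miRNAs. The groups of hsa-miR-29c-3p did overlap by library total without TMM (exposed 1.48 and 1.33 CPM, unexposed 1.29 and 1.82 CPM). The log2 fold change was -0.28 (SE 0.33, 95% interval -1.05 to 0.48, or 0.484-fold to 1.4-fold), and it did not pass the test (edgeR adjusted P = 0.958, unadjusted P = 0.42, exact permutation P = 0.333). For the exact two-sided permutation test over libraries, 0.333 is the smallest P that 2 samples against 2 allow.

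Among the passengers, hsa-miR-29b-2-5p had 84 and 111 counts in exposed and 53 and 36 counts in unexposed cells, or 3.33 and 4.56 CPM against 4.49 and 2.8 CPM. The replicates of each group lay far apart and the groups overlapped. Its log2 fold change was 0.12 (SE 0.36, 95% interval -0.71 to 0.94, edgeR adjusted P = 0.983, unadjusted P = 0.751, exact permutation P = 0.667). hsa-miR-29c-5p had 112 and 74 counts in exposed and 38 and 44 counts in unexposed cells, or 4.44 and 3.04 CPM against 3.22 and 3.42 CPM. After TMM scaling exposed replicate 1 was the highest library and exposed replicate 2 the lowest, so the groups overlapped. By library total without TMM, hsa-miR-29c-5p was lowest in unexposed replicate 1 and the groups also overlapped (5.04 and 2.98 CPM against 2.73 and 3.64 CPM). Its log2 fold change was 0.17 (SE 0.33, 95% interval -0.59 to 0.93, edgeR adjusted P = 0.975, unadjusted P = 0.616, exact permutation P = 1.0).

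The other passengers, both of the chromosome 7 cluster, did not pass the filter on low counts and were not tested. hsa-miR-29b-1-5p had 7 and 13 counts in exposed and 7 and 10 counts in unexposed cells, or 0.278 and 0.534 CPM against 0.593 and 0.777 CPM. After TMM scaling the exposed libraries lay below the unexposed ones without overlap (exact permutation P = 0.333), and groups did not overlap for 33.4% of all tested miRNAs. By library total without TMM the groups overlapped, at 0.315 and 0.523 CPM in exposed and 0.502 and 0.826 CPM in unexposed cells. hsa-miR-29a-5p had 3 and 1 counts in exposed cells and 0 and 3 counts in unexposed cells. For the 0 in unexposed replicate 1, 3 counts of that library's total correspond to 0.215 CPM, and the 95% Wilson interval reaches 0.276 CPM. At this depth no difference in hsa-miR-29a-5p was detectable.

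None of the 5 members that passed the filter had a P under 0.05 in edgeR, limma-voom or DESeq2. Among all 863 tested miRNAs 39 (4.52%) had an unadjusted P under 0.05 in edgeR, of which 22 (2.55%) were higher and 17 (1.97%) were lower in exposed cells, 20 (2.32%) also changed more than 2-fold, and 0 (0.0%) had an adjusted P under 0.05. The lowest adjusted P of any miRNA was 0.922. The median absolute log2 fold change of all tested miRNAs was 0.25 with a median SE of 0.33. Of all tested miRNAs, 94.6% had a larger absolute log2 fold change than hsa-miR-29b-3p, 83.0% than hsa-miR-29a-3p and 43.7% than hsa-miR-29c-3p, the member that differed most. In the edgeR fit with TMM scaling, the 95% intervals of hsa-miR-29a-3p, hsa-miR-29b-3p, hsa-miR-29b-2-5p and hsa-miR-29c-5p exclude a 2-fold change in either direction. That of hsa-miR-29c-3p excludes a 2-fold higher but not a 2-fold lower level in exposed cells. These exclusions hold for this fit only, since intervals are not given for the alternatives and some had larger SEs. Scaling by library size only gave hsa-miR-29c-5p a log2 fold change of 0.33 (SE 0.43). With libraries paired by replicate number, hsa-miR-29b-2-5p had 0.13 (SE 0.44), and with crossed numbers 0.13 (SE 0.28). A miss of the threshold does not show that the levels were equal.

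**Figure D2:**
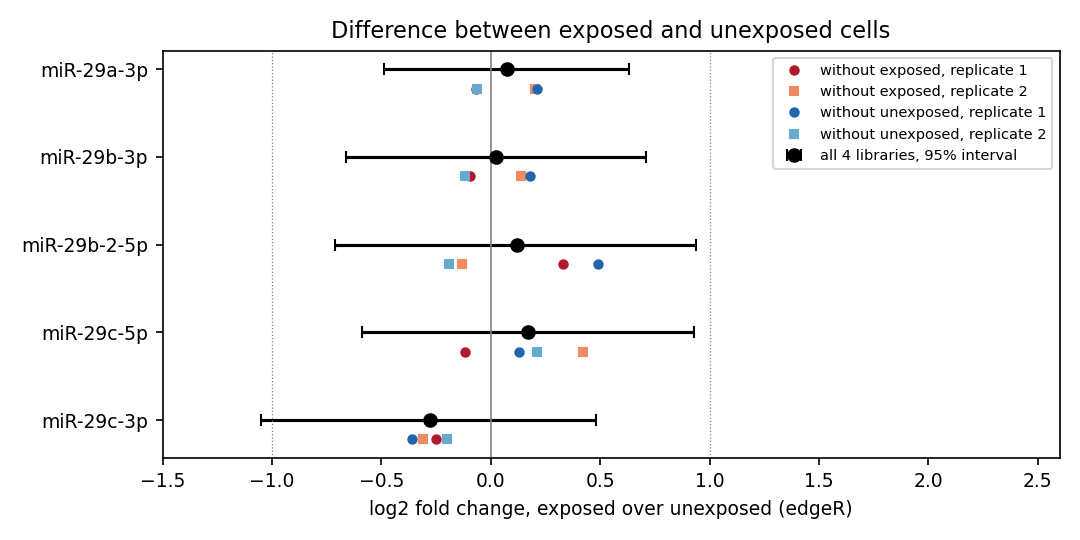
Log2 fold change of the 5 tested miR-29 members, exposed over unexposed (edgeR), with the 95% interval from all 4 libraries in black and, below it, the value with each library left out in turn. All 5 intervals span 0, and only hsa-miR-29c-3p kept a negative sign whichever library was left out.

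**Figure D3:**
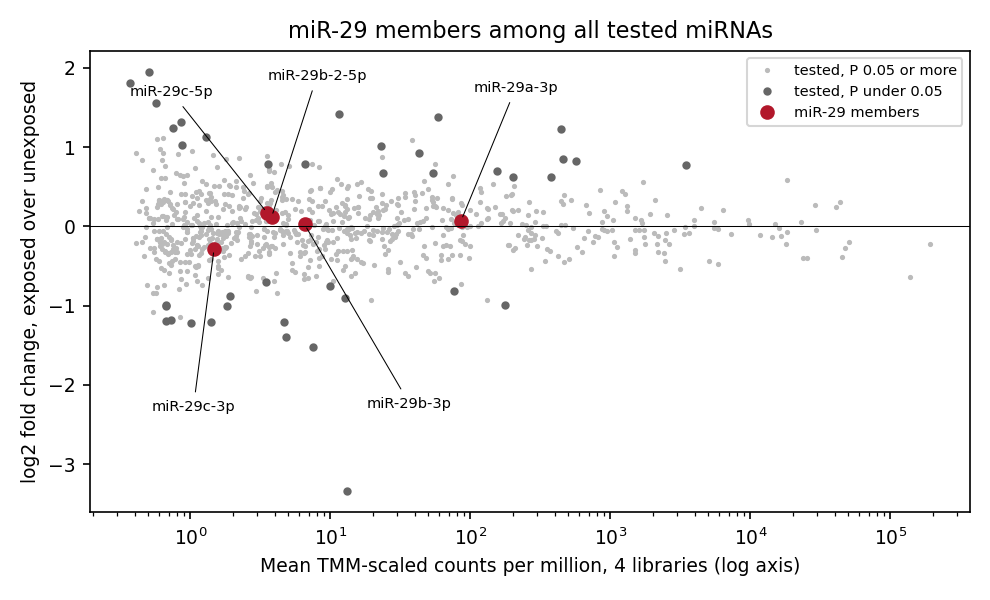
Log2 fold change of all 863 tested miRNAs (exposed over unexposed) against their mean TMM-scaled CPM on a log axis, with the miR-29 members in red and, in dark gray, the 39 whose unadjusted P was under 0.05. The members lie between -0.28 and 0.17, inside the cloud of miRNAs of similar level.

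The make-up of the guide strands, a measure that needs no scaling, was nearly constant. hsa-miR-29a-3p took 91.9% and 91.5% of the guide counts in exposed and 91.3% and 91.0% in unexposed cells. hsa-miR-29b-3p took between 6.83% and 7.13% in the 4 libraries, and the lowest and highest values were closer to each other than the width of any library's 95% Wilson interval. hsa-miR-29c-3p took 1.25% (95% Wilson interval 0.892 to 1.75) and 1.56% (1.11 to 2.18) in exposed cells and 1.53% (0.969 to 2.4) and 2.05% (1.36 to 3.08) in unexposed cells. The ratio of hsa-miR-29a-3p to hsa-miR-29c-3p was 73.5 and 58.7 in exposed and 59.8 and 44.4 in unexposed cells. The groups overlapped, and the mean log2 ratio differed by 0.36, exposed minus unexposed (exact two-sided permutation P = 0.667).

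Passenger strands showed another order. Of the 596 passenger counts, 552 (92.6%, 95% Wilson interval 90.2 to 94.5) came from the chromosome 1 cluster and 44 from the chromosome 7 cluster. By library the chromosome 1 share was 95.1% and 93.0% in exposed cells and 92.9% and 86.0% in unexposed cells. The miR-29b passengers, whose precursors give the same guide, differed likewise, with 12.0 and 8.54 counts of hsa-miR-29b-2-5p for each count of hsa-miR-29b-1-5p in exposed cells and 7.57 and 3.6 in unexposed cells. This last ratio was examined after the counts had been seen. Its exposed values lay above its unexposed values without overlap (log2 difference 0.95, exact two-sided permutation P = 0.333), and it rests on 7 to 13 counts of hsa-miR-29b-1-5p per library. Without unexposed replicate 2 the log2 difference was 0.44, and without unexposed replicate 1 it was 1.47.

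The balance of the arms differed widely between precursors of the family. MIR29A was almost wholly 3p, with 5p shares of 0.124% and 0.0516% in exposed and 0.0% and 0.306% in unexposed cells. For the miR-29b precursors together the 5p share was 33.6% and 45.8% in exposed and 41.7% and 38.0% in unexposed cells, below the 3p share in all 4 libraries, although the 95% Wilson interval of exposed replicate 2 (39.9 to 51.7) reached beyond equal shares. MIR29C was reversed in the counts, and its nominal passenger exceeded its guide in every library. How reads were assigned between hsa-miR-29c-3p and hsa-miR-29a-3p, which differ by a single base, bears on the MIR29A and MIR29C shares. It was not tested, and the Wilson intervals do not cover it. Its 5p share was 77.2% (69.8 to 83.3) and 69.2% (59.9 to 77.1) in exposed cells and 67.9% (54.8 to 78.6) and 66.7% (54.7 to 76.8) in unexposed cells, with all 4 intervals above 50%.

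In counts, hsa-miR-29c-5p exceeded hsa-miR-29c-3p 3.39-fold and 2.24-fold in exposed cells and 2.11-fold and 2.0-fold in unexposed cells. The exposed ratios lay above the unexposed ones without overlap, by a log2 difference of 0.43 (log2 means 1.45 ± 0.42 and 1.02 ± 0.052, SD, n = 2 each, exact two-sided permutation P = 0.333). Most of this difference rested on exposed replicate 1, without which it was 0.13. For MIR29A and for the miR-29b precursors the groups overlapped (log2 differences -0.29 and -0.022, exact two-sided permutation P = 1 for each). Leaving out single libraries moved the MIR29A difference between -1.76 and 1.19.

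**Figure D4:**
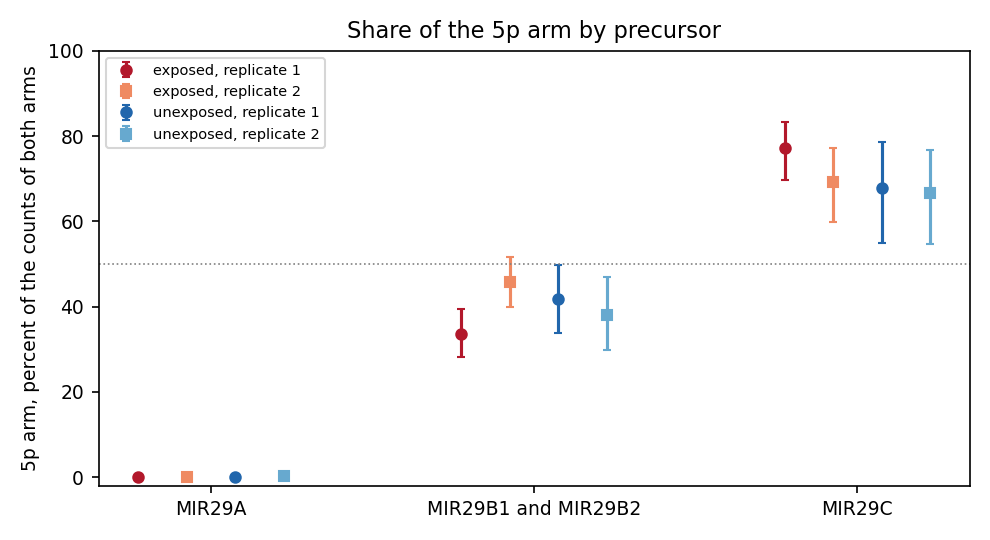
Share of the 5p arm in the counts of both arms, in percent, for each miR-29 precursor and library, with 95% Wilson intervals that cover counting error only. MIR29A lies near 0, the miR-29b precursors together lie between 33.6% and 45.8%, and MIR29C lies above the dotted line of equal arms in all 4 libraries.

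The arms of MIR29A and MIR29C were set against 411 precursors with at least 20 counts over both arms and with arms that no other precursor shares. The 5p arm exceeded the 3p arm in 210 of them (51.1%), and the quartiles of the log2 ratio of 5p to 3p counts were -4.24, 0.24 and 4.56. MIR29A, at -9.74 over the 4 libraries, lay in the lower tail, with 2.68% of the precursors at a lower value and 7.3% with a less even balance in either direction. MIR29C, at 1.33, was among the more even ones, and 82.5% of the precursors had a less even balance. Both values depend on how reads were assigned between hsa-miR-29a-3p and hsa-miR-29c-3p, which was not tested.

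**Figure D5:**
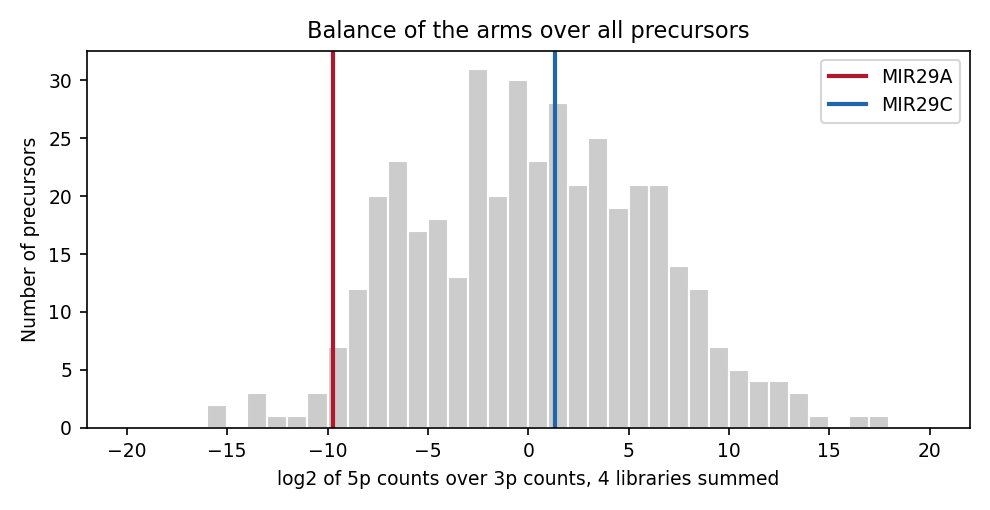
Number of precursors (of 411) by the log2 ratio of 5p to 3p counts, summed over the 4 libraries, in bins of width 1. The line of MIR29A stands at -9.74 in the left tail and that of MIR29C at 1.33 near the middle.

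Across the 4 libraries the level pattern of hsa-miR-29b-3p was close to that of hsa-miR-29a-3p. The distance between their log2 CPM, each centered on its own mean, was 0.0563, against a median of 0.606 over the 862 other tested miRNAs, and only hsa-miR-133a-3p was closer (0.0413). The next were hsa-miR-4508 (0.0721), hsa-miR-514a-3p (0.0933) and hsa-miR-548aa (0.095). hsa-miR-29c-5p ranked 128th (0.319), hsa-miR-29c-3p 360th (0.523) and hsa-miR-29b-2-5p 417th (0.591). These are descriptions over 4 points. A library's scaling acts alike on both miRNAs of a pair and largely cancels from the distance. The closest, hsa-miR-133a-3p, rested on 16 to 40 counts in a library.

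Other miRNAs known for the roles of miR-29 were read from the same fit, against a median log2 fold change of -0.01 over all tested miRNAs. Of 13 miRNAs known for acting on mRNAs of DNA methylation enzymes, all 13 were tested, with a median log2 fold change of -0.20. Of these 13, 0 had a P under 0.05 in edgeR, when 39 of all 863 (4.52%) did, and 0 in limma-voom, when 31 of all 863 did. In DESeq2 1 of the 13 was lower at this threshold, when 1.51% of all tested miRNAs were. The most abundant of them were hsa-miR-26a-5p (50400 CPM, log2 fold change -0.20, SE 0.27) and hsa-miR-148a-3p (3940 CPM, log2 fold change 0.0096, SE 0.22). In this list 2 of the 13 log2 fold changes were positive. With upper quartile scaling in edgeR 1 of the 13 was lower at an unadjusted P under 0.05, when 3.24% of all were. With a block of crossed replicate numbers 1 was lower, when 2.78% of all were. Without unexposed replicate 2, 3 of the 13 were lower at an unadjusted P under 0.05, when 41 of all 863 miRNAs (4.75%) were. Of 14 neuronal maturation miRNAs, all tested, 1 was higher and 0 were lower at an unadjusted P under 0.05 (2.55% and 1.97% of all tested miRNAs), 9 log2 fold changes were positive, and the median was 0.13. The higher one was hsa-miR-124-3p, a neuron-specific miRNA, with 136324 and 81832 counts in exposed and 34768 and 28176 counts in unexposed cells, or 5410 and 3360 CPM against 2950 and 2190 CPM. Its groups did not overlap, as for 33.4% of all tested miRNAs. The log2 fold change was 0.77 (SE 0.30, adjusted P = 0.922, edgeR), but without exposed replicate 1 it was 0.39 and no longer had an unadjusted P under 0.05. With a block of crossed replicate numbers, 1 of the 14 was higher and 1 was lower at this threshold (4.06% and 2.78% of all). Without the filter 1 was higher and 1 was lower as well (3.01% and 2.14% of the 1825 tested). Without unexposed replicate 1, 3 of the 14 were higher and 1 was lower at an unadjusted P under 0.05, against 3.48% and 5.21% of all tested miRNAs. Without unexposed replicate 2, 2 were higher and 1 was lower at this threshold, against 7.53% and 4.75% of all.

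Of 11 miRNAs known for acting on matrix and fibrosis genes, 10 were tested, of which 0 were higher and 2 were lower at an unadjusted P under 0.05 (2.55% and 1.97% of all tested miRNAs), with a median log2 fold change of -0.29. The lower ones, hsa-miR-19a-3p and hsa-miR-19b-3p, belong to the miR-17-92 group. hsa-miR-19a-3p stood at 2.42 and 3.2 CPM in exposed and 9.33 and 3.73 CPM in unexposed cells (log2 fold change -1.21, SE 0.45, adjusted P = 0.922, edgeR). hsa-miR-19b-3p stood at 8.33 and 9.37 CPM against 20.9 and 12.2 CPM (log2 fold change -0.90, SE 0.33, adjusted P = 0.922, edgeR). Unexposed replicate 1 was the highest library for each. Without it the log2 fold changes were -0.41 and -0.46, and neither had an unadjusted P under 0.05. This threshold was also missed by both without exposed replicate 1 (-1.02 and -0.81) and when the replicate number entered the fit as a block (-1.10 and -0.86), either of which left 0 of the 10 lower, and by hsa-miR-19b-3p without exposed replicate 2 (-0.99) and with scaling by library size only (-0.72). With unexposed replicate 2 left out, which leaves unexposed replicate 1 alone in its group, the values were -1.73 and -1.24 on the log2 scale, with adjusted P of 0.00147 and 0.0212 by edgeR, and 3 of the 10 were lower at an unadjusted P under 0.05, when 4.75% of all tested miRNAs were. With a crossed block, which sets exposed replicate 1 with unexposed replicate 2 and the reverse, 3 of the 10 were lower at this threshold, when 2.78% of all were.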

How the data were processed

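Small RNA was sequenced from 4 samples of H1 hESC-derived cortical interneurons, 2 exposed and 2 unexposed, grouped by the sample labels. The libraries were prepared with a NEBNext kit, and the authors deposited raw read counts per mature miRNA from CAP-miRseq, a pipeline that trims, aligns and counts small RNA reads. The submitters' processing notes list hg19. The version of CAP-miRseq and its miRNA annotation are not given in the sources used here. Positions were therefore matched by name to RefSeq and GENCODE 29 (GRCh38). Depth was 22223060 and 24858230 counts in exposed and 13941795 and 12100425 in unexposed replicates 1 and 2. A comparison between different miRNAs also carries any sequence preference of library preparation, which was not tested.

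The miRNAs were filtered by filterByExpr (minimum count 10, minimum total 15; 863 kept), scaled by TMM and compared with edgeR 4.0.16 in R 4.3.3 (quasi-likelihood test, Benjamini-Hochberg adjustment), without covariates. The SE was taken from the F statistic. The fit was tested on simulated data. Arm ratios had 0.5 counts added to each arm for tests. Shares have 95% Wilson intervals, and a limit of 3 counts was set for a member with 0 counts in a library. Intervals and this limit cover counting error only. Replicates were compared over 863 miRNAs for libraries deposited more than once, and chi-square per degree of freedom was 795 (exposed) and 712 (unexposed), far above sampling noise.

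Alternatives were limma 3.58.1 (voom), DESeq2 1.42.0, scalings by DESeq2's size factors, library size only or upper quartile, 3 other filters, the replicate number as a block, other pseudocounts, and each library left out. Same-numbered libraries deviated with a correlation of -0.186 over 863 miRNAs, so a block with crossed numbers was added after the data were seen.

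Named miRNAs were all 7 members, any sharing the guides' seed, the 5 closest in pattern to the most abundant member, the members of each pathway list with P under 0.05 (at most 5, and otherwise the 2 most abundant), and the most abundant member of each marker list. hsa-miR-519e-3p, the markers at 0 counts and the low markers given beside them were named after their values were seen. The members, lists and tests were chosen with earlier results of these data known. The brain samples and mRNA data of the study were not analysed here.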

Additional observations from a re-analysis of the deposited data

How the results depend on the processing

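None of the 70 fits of the 5 tested members under 14 alternatives gave a P under 0.05 (lowest 0.257, from edgeR, limma or DESeq2). The log2 fold change of hsa-miR-29c-3p stayed negative in all 14 (-0.39 to -0.14). The sign turned in 11 of the 70 fits, and the cause was not tested: hsa-miR-29a-3p with upper quartile scaling (-0.037) and over the fits leaving out a library (-0.067 to 0.21), hsa-miR-29b-3p with DESeq2 (-0.012), its size factors in edgeR (-0.012), upper quartile scaling (-0.083) and leaving out a library (-0.12 to 0.18), hsa-miR-29b-2-5p leaving out a library (-0.19 to 0.49), and hsa-miR-29c-5p likewise (-0.12 to 0.42). The MIR29A arm difference ran from -1.76 to 1.19 and that of the miR-29b precursors from -0.39 to 0.35 with a library left out. The MIR29A arm ratio without a pseudocount was not computed, since unexposed replicate 1 had 0 counts of the 5p arm.

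Relative to all miRNAs, library size alone moved the median log2 fold change to 0.14 and upper quartile scaling to -0.12. The 39 miRNAs with P under 0.05 (22 higher, 17 lower) became 30 higher and 7 lower with library size only and 15 higher and 28 lower with upper quartile scaling. Their number was 94 without the filter, when 1825 miRNAs were tested and 6 had an adjusted P under 0.05 by edgeR, and between 11 (without exposed replicate 1) and 106 (without unexposed replicate 2) with a library left out, when the lone library of a group is assumed to vary like the others and 1 to 16 had an adjusted P under 0.05 by edgeR. Without the filter, hsa-miR-29b-1-5p had a log2 fold change of -0.74 (SE 0.54) and hsa-miR-29a-5p of -0.53 (SE 1.37).

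With the replicate block the log2 fold changes were 0.072 for hsa-miR-29a-3p, 0.027 for hsa-miR-29b-3p, -0.28 for hsa-miR-29c-3p, 0.13 for hsa-miR-29b-2-5p and 0.15 for hsa-miR-29c-5p, and no call on a member changed. The replicate block gave 25 miRNAs with P under 0.05 and the crossed replicate block 59. Depth limits hsa-miR-29a-5p, hsa-miR-29b-1-5p and hsa-miR-29c-3p, with at most 33 counts in a library.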
